A study of Mus musculus with 2 samples.

Results

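Histone H3 dimethylated at lysine 9 (H3K9me2) was mapped by ChIP-seq, in which fragments pulled down with an antibody are sequenced, in C57BL/6 mouse cortex of embryonic day 15.5. A TBC1D3-transgenic (TG) library and a wildtype (WT) library were compared, 1 of each, and both came from the same tissue, strain, stage and antibody. The regions described here are TG peaks on chromosomes 1 to 19 chosen by their deposited pileup: the summit was covered by 8 or more fragments. These 1343 high-pileup peaks were 22.0% of the 6092 autosomal TG peaks, and the 4749 autosomal TG peaks of 5 to 7 fragments (low-pileup peaks) served as their comparison. The series held 6996 peaks in all, 6253 in the TG list and 743 in the WT list. The promoter that drives the transgene and the number of embryos behind a library are not given in the sources used here.

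H3K9me2 is a mark of silent chromatin that typically covers broad domains, many of them poor in genes or at the edge of the nucleus. G9a (Ehmt2) and its partner GLP (Ehmt1) write most of it in euchromatin, and HP1 proteins and related readers bind methylated lysine 9. TBC1D3 is a hominoid gene family, and the series title links it to G9a and to neural progenitors of the cortex. The comparison here asked whether the best covered TG peaks lay elsewhere than the sparsely covered ones. A peak list holds no expression, so the tissue label could not be checked against marker genes.

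With 1 library per genotype there was no replicate and no test between genotypes. Peaks of a library are not replicates, and each 95% interval below covers counting error alone. The ChIP depth was 20697113 tags in the TG library and 26735120 tags in the WT library after filtering. The local background of a peak is the level, in fragments, that the peak caller set against its pileup, recovered from the deposited pileup and fold. Its lowest value, 0.841, is a genome-wide level and not a local measure of the input.

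Few peaks of either tier overlapped a promoter window, and such windows are themselves short. RefSeq windows of 300 bases (250 before to 50 after a start, GRCm38.p6) were compared on the autosomes that the window table covers. Of 1295 high-pileup peaks there, 5 (0.386%, interval 0.125 to 0.899) overlapped a window, against 15 of 4548 low-pileup peaks (0.330%, 0.185 to 0.543). The difference was 0.0563 percentage points (-0.251 to 0.587). Windows of coding genes were touched by 1 high-pileup peak and 7 low-pileup peaks. The 3 windows whose peak summit lay nearest to the start are printed below, chosen after their values were seen, on the strand of the gene and with the bases under the peak in capitals.
Gm16527 (coding gene, plus strand, chr3:59777544-59777843): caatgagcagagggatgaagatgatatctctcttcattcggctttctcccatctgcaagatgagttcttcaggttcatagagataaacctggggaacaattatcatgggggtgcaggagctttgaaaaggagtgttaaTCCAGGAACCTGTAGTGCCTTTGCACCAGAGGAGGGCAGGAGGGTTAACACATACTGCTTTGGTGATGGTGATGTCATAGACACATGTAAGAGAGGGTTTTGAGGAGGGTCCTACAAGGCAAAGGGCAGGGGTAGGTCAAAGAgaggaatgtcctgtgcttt
Gm30127 (long noncoding RNA gene, minus strand, chr13:35961106-35961405): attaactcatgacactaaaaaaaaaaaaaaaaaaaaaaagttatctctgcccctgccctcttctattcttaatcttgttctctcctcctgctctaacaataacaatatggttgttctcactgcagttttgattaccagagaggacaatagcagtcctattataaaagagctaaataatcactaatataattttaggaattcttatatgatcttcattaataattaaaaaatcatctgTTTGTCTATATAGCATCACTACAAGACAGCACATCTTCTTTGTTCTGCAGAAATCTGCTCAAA
Gm3331 (long noncoding RNA gene, plus strand, chr9:32782896-32783195): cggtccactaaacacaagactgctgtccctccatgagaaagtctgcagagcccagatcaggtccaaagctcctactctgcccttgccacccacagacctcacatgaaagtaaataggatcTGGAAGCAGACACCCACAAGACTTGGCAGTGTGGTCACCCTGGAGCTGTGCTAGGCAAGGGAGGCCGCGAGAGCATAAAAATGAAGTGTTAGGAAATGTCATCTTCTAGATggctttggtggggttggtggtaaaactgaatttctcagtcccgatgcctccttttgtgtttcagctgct

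The Gm16527 peak held 9 fragments (fold 4.54) and its summit lay 3 bp from the start. The Gm30127 peak held 8 fragments (fold 4.27), with its summit 20 bp inside the transcript, and it also lay in the body of Ppp1r3g, which encodes a glycogen-targeting phosphatase subunit. The Gm3331 peak held 8 fragments (fold 3.78), with its summit 41 bp upstream of the start and 25.2 kb from Ets1, a transcription factor gene. Both strands were searched for the motif CG, which reads the same on each, and all 5 windows held fewer than the median. Gm16527 held 1, Gm30127 held 0 and Gm3331 held 4, and the Gm33980 and 4930413E15Rik windows held 6 and 4. The median of 31396 autosomal windows was 7, with quartiles of 3 and 21, and 94.8% of windows held at least 1 CG. Windows of coding genes alone had a median of 14, and of the 5 only the Gm16527 window is of that kind. Windows under low-pileup peaks were not compared here, so these counts are not a result about high-pileup peaks. The nearest WT peak to these 5 peaks lay 85.1 kb from the 4930413E15Rik peak.

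The rule used pileup, so pileup, fold, p, q and width describe the high-pileup peaks and are not results. Of the 1343, 915 held 8 fragments, 296 held 9, 101 held 10 and 23 held 11. Another 4 held 12, 2 held 13, 1 held 14 and 1 held 22. The median fold was 4.48 (range 2.53 to 6.52) in high-pileup peaks and 3.52 (2.85 to 4.34) in low-pileup peaks. The median width was 119 bp in high-pileup peaks and 112 bp in low-pileup peaks. In both tiers the lowest width and the first quartile were 111 bp, the length to which TG fragments were extended. The q value was at or below 0.1 for 83.0% of high-pileup peaks and for 6.32% of low-pileup peaks, by the authors' caller. No q was far below that cut: the lowest was 0.0673 in high-pileup and 0.0895 in low-pileup peaks. Just inside the threshold, peaks of 8 fragments had a median fold of 4.36 and a median local background of 1.06 fragments. Just outside it, the 1632 peaks of 7 fragments had a median fold of 4.01 and a median background of 0.997.

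The tallest peaks were not those of highest fold, and a background of 2 or more was found at 4 of the 20 highest pileups. With ties in pileup broken by fold, 14 of these 20 were also among the 20 highest folds. The tallest peak of the list, 22 fragments at chr1:88294518-88294634, had a local background of 5.92 fragments and a fold of 3.32. It lay 12.2 kb from Trpm8, the cold-sensing channel gene. The next, 14 fragments in Mogat1, an acyltransferase gene of fat synthesis, had a background of 4.94 and the lowest fold of the tier, 2.53. Of the pair with 13 fragments, the peak in Gm2977 had a background of 3.95 and a fold of 2.83. The peak in Ctla4, an inhibitory T cell receptor gene, had a background of 2.08 and a fold of 4.54. Backgrounds of 5.92, 4.94 and 3.95 equal 6, 5 and 4 input fragments after the caller's scaling by 0.987, within 0.0002.

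A background of 2 or more occurred at 10 high-pileup peaks and at 0 low-pileup peaks, whose highest was 1.75. Besides those 4 and a peak of 11 fragments 643 kb from Galr1, these were 5 peaks of 10 fragments on exactly 3 input fragments, each with a fold of 2.78. They lay in Ntm (an adhesion gene), in Ctnna2 (neuronal alpha-catenin), and 227 kb from G6pd2, 159 kb from Irx2 and 419 kb from Neto1. A background of exactly 2 input fragments was found at 126 high-pileup peaks (9.38%) and 0 low-pileup peaks. A fixed p cutoff asks for more fragments where the input is higher, so the rule and the background were not independent. The part of the raised background in these pileups was not tested.

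**Figure D1:**
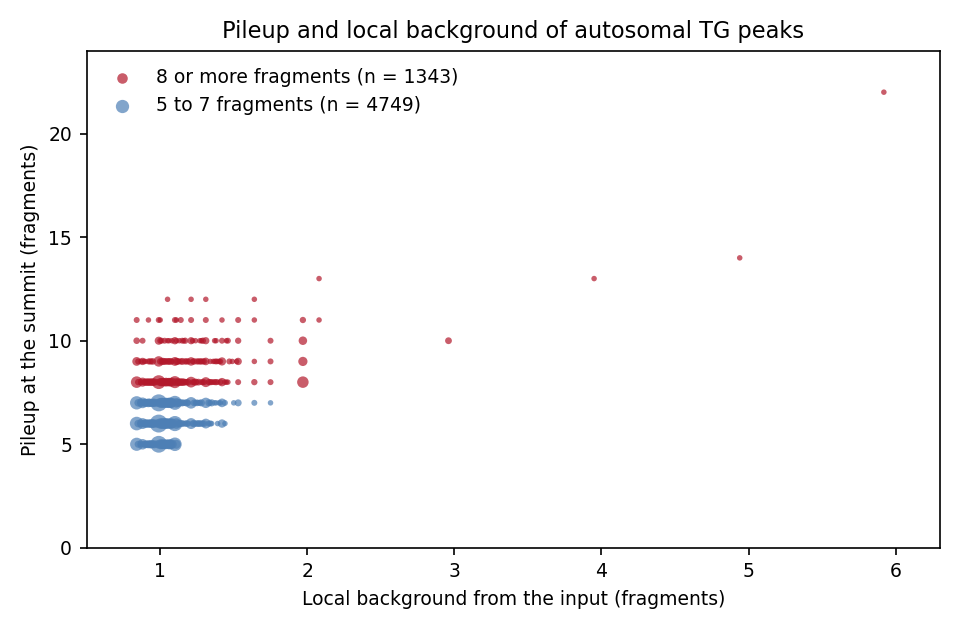
Pileup at the summit against local background, both in fragments, for autosomal TG peaks of 8 or more fragments (red) and of 5 to 7 fragments (blue). Larger points stand for more peaks at the same place. The peaks of 22 and 14 fragments stand alone at backgrounds of 5.92 and 4.94.

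Other tall peaks had many fragments over a low background. The highest fold of the list, 6.52, belonged to a pair of peaks of 11 fragments at the genome-wide background of 0.841. One lay 255 kb from Lratd1 on chromosome 12 and the other 274 kb from Gm46900 on chromosome 5. A peak of 12 fragments 492 kb from Jag1, a Notch ligand gene, had a fold of 6.34 at a background of 1.05. A peak 46.3 kb from Ppp4r2, a phosphatase subunit gene, had 11 fragments and a fold of 6.25. A peak 6.53 kb from Ms4a7 and another 489 kb from Mcph1, the microcephalin gene, each had 11 fragments over 1 input fragment and a fold of 6.04. The 20 peaks of highest pileup took their last 12 places from 23 peaks of 11 fragments, by highest fold. Of those 20, 11 were intergenic, 8 lay in coding genes and 1 in a noncoding gene outside any coding gene. The coding hosts were Mogat1, Ctla4, Gm2977, Adamtsl1 (a matrix protein), Spock1 (a proteoglycan), Caln1 (a calcium-binding protein), Cald1 (caldesmon) and Xkr6. The noncoding host was D930032P07Rik, 15.2 kb from Glis3. Other peaks of 11 fragments lay 84.5 kb from Ipo11, 216 kb from Hhip, 67.4 kb from Ppp3ca and 191 kb from Bcl11b. None of the 20 had a WT peak within 10 kb, against 1.33% of all autosomal TG peaks. A WT peak lay within 100 kb of 1, in Adamtsl1, against 9.23% of all high-pileup peaks. Counts this small are not a result about these 20.

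High-pileup peaks lay in coding genes more often than low-pileup peaks, and less often in other genes outside coding genes. A midpoint inside both a coding gene and another gene was counted as coding, so these shares were not independent. Coding gene bodies held 421 of the 1343 high-pileup midpoints (31.3%, interval 28.9 to 33.9), against 1323 of the 4749 low-pileup midpoints (27.9%, 26.6 to 29.2). The difference was 3.49 percentage points (Newcombe 95% interval 0.741 to 6.32). Other gene bodies held 111 high-pileup peaks (8.27%, 6.85 to 9.87) and 538 low-pileup peaks (11.3%, 10.4 to 12.3), a difference of -3.06 points (-4.71 to -1.25). Of these, 96 of the 111 and 480 of the 538 lay in long noncoding RNA genes. Gene flanks within 2 kb held 3.20% of high-pileup and 4.0% of low-pileup peaks, a difference of -0.80 points (-1.81 to 0.403). Intergenic sequence held 57.2% of high-pileup and 56.8% of low-pileup peaks, a difference of 0.373 points (-2.64 to 3.35).

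**Figure D2:**
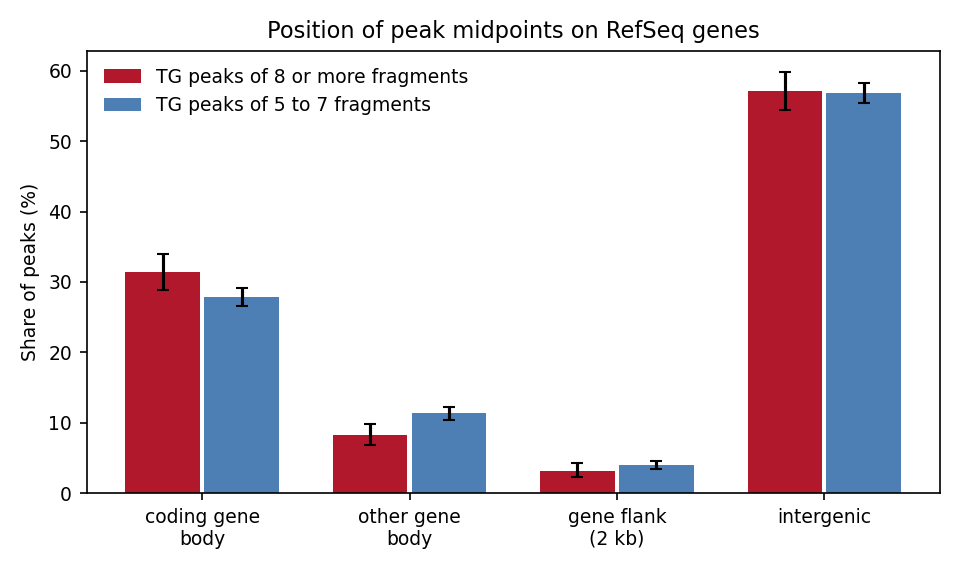
Share of peak midpoints (percent) in each class of RefSeq gene position, for TG peaks of 8 or more fragments (red, n = 1343) and of 5 to 7 fragments (blue, n = 4749), with exact 95% binomial intervals. The red bar is higher in coding gene bodies (31.3% against 27.9%) and lower in other gene bodies (8.27% against 11.3%).

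Within ranges of local background, no interval of the coding difference left out 0, while the noncoding difference was negative in each and its interval left out 0 in 2 of the 3 ranges. The median background was 1.10 at high-pileup peaks in coding genes and 1.05 at intergenic ones, and 1.01 and 0.987 at low-pileup peaks of the same classes. Among peaks with a background under 1 fragment, coding genes held 24.6% of 496 high-pileup and 24.5% of 2577 low-pileup peaks, a difference of 0.0721 points (-3.90 to 4.37). From 1 fragment to the highest background of the low tier they held 35.2% of 705 high-pileup and 31.8% of 2171 low-pileup peaks, a difference of 3.35 points (-0.622 to 7.43). At the genome-wide background of 0.841, part of the first range, the coding difference was 3.21 points (-4.89 to 12.8). These intervals overlap, so no trend with background was shown. The noncoding difference was -3.87 points (-6.09 to -1.12) under 1 fragment, -3.17 (-5.59 to -0.446) above it and -3.41 (-7.44 to 2.95) at the genome-wide value.

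By single pileup values the coding share did not climb evenly. It was 28.6% at 5 fragments, 28.0% at 6, 27.1% at 7, 31.4% at 8, 30.7% at 9 and 32.6% at 10 or more. The share in other gene bodies was 11.7%, 11.0% and 11.5% at 5, 6 and 7 fragments. It was 8.09%, 8.11% and 9.85% at 8, 9 and 10 or more. Intervals at 10 or more were wide, 24.7 to 41.3% for coding genes on 132 peaks, and overlapped those of every other value. With a threshold of 7 the coding difference was 0.744 points (-1.53 to 3.02), and with a threshold of 9 it was 2.88 (-1.49 to 7.57). The difference in other gene bodies was -1.24 points (-2.79 to 0.308) with a threshold of 7 and -2.16 (-4.615 to 0.982) with 9. So at either threshold both intervals held 0.

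**Figure D3:**
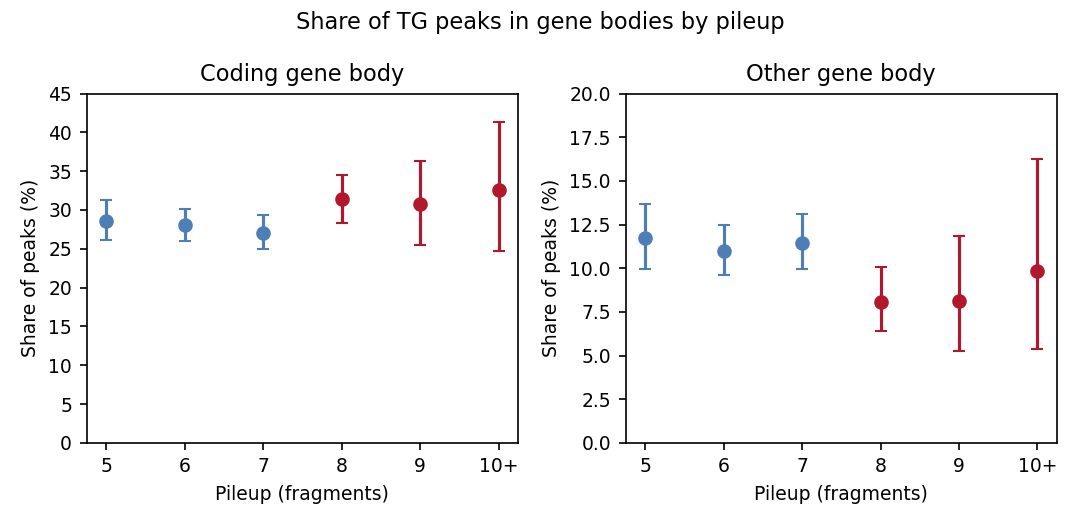
Share of autosomal TG peaks (percent) with their midpoint in a coding gene body (left) or another gene body (right), by pileup in fragments. Points are shares with exact 95% binomial intervals, blue for 5 to 7 and red for 8 or more fragments. Coding shares run between 27.1% and 28.6% below 8 fragments and between 30.7% and 32.6% from 8 upwards.

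Surroundings on a larger scale were close in both tiers. Intergenic high-pileup peaks lay at a median of 120 kb from the nearest coding gene (quartiles 40.8 and 278 kb), against 112 kb for low-pileup peaks (33.9 and 294 kb). The farthest high-pileup peak lay 1.93 Mb away, and 12.5% of the intergenic ones lay over 500 kb away, against 13.0% of the intergenic low-pileup peaks. Windows of 1 Mb with 0 coding genes held 11.1% of high-pileup and 12.6% of low-pileup peaks, a difference of -1.50 points (-3.35 to 0.514). Windows with over 15 coding genes held 9.31% of high-pileup and 9.64% of low-pileup peaks, a difference of -0.337 points (-2.02 to 1.52). Within 10 kb of a promoter window lay 13.1% of high-pileup and 13.4% of low-pileup peaks, a difference of -0.263 points (-2.27 to 1.91).

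High-pileup peaks were found in or within 2 kb of 364 of 20560 autosomal coding genes (1.77%), low-pileup peaks in 962 (4.68%) and WT peaks in 196 (0.953%). Low-pileup peaks were present in 143 of the high-pileup genes, which is 39.3% of the 364 and 14.9% of the 962. WT peaks were present in 62 of them, which is 17.0% of the 364 and 31.6% of the 196. WT and low-pileup peaks shared 94 genes, 9.77% of the 962 and 48.0% of the 196. The median length was 222 kb for genes with a high-pileup peak, 164 kb for genes with a low-pileup peak and 17.6 kb for all coding genes. Genes over 500 kb made up 23.1% of the genes with a high-pileup peak and 17.8% of those with a low-pileup peak. Longer genes offer more room for a peak, so shared genes and length were not separate facts.

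Most of these genes, 316, held a single high-pileup peak, 29 held 2, 16 held 3 and 3 held 4 or more. Opcml, an adhesion gene of the IgLON family, held 5 of 8 or 9 fragments (folds 3.36 to 4.63) beside 9 low-pileup peaks and 2 WT peaks. At the overall share of 22.0%, its 14 TG peaks would include 3.09 of the high tier. Its neighbour Ntm, of the same family, held 3 high-pileup, 3 low-pileup and 0 WT peaks. Cacna1e, the R-type calcium channel gene at chr1:154390806-154884785, held 4 high-pileup peaks and 1 low-pileup peak, where the overall share gives 1.10 of 5. Those 4 held 10, 10, 8 and 8 fragments, with folds of 5.28, 4.50, 4.08 and 3.03, and 0 WT peaks were listed in the gene. Dab1, the adaptor of Reelin signalling in neuronal migration, held 4 high-pileup peaks of 8 fragments (folds 4.10 to 4.36), 2 low-pileup peaks and 1 WT peak. Having been singled out among 364 genes for these counts, they have no test.

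The genes with 3 high-pileup peaks divided by what else they held. Tenm3 (a teneurin), L3mbtl4 (a malignant brain tumour repeat protein), Tmem232 and Kcnma1 (the large-conductance calcium-activated potassium channel) held 0 low-pileup peaks. Adamtsl1, Grm8, Lrmda and Cdkal1 held from 1 low-pileup peak, in Cdkal1, to 3, in Adamtsl1. Ano2 (a chloride channel) held 6 low-pileup peaks, and Csmd1, Gpc5 and Grin2a (an NMDA receptor subunit) 5 each. Erc2, a presynaptic scaffold gene, and Trpm3 held 4 each. WT peaks were 3 in Erc2 and 3 in Grin2a, and 1 each in Adamtsl1, Tenm3, Lrmda and Kcnma1. Among genes with 2 high-pileup and 0 low-pileup peaks, the shorter ones included Fli1 (121 kb), an ETS transcription factor gene, and Glra1 (93.96 kb), a glycine receptor subunit gene. Nlrp1b, an inflammasome gene of 89.9 kb, also held 2 and 0. Each of these is still longer than the median coding gene of 17.6 kb.

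**Figure D4:**
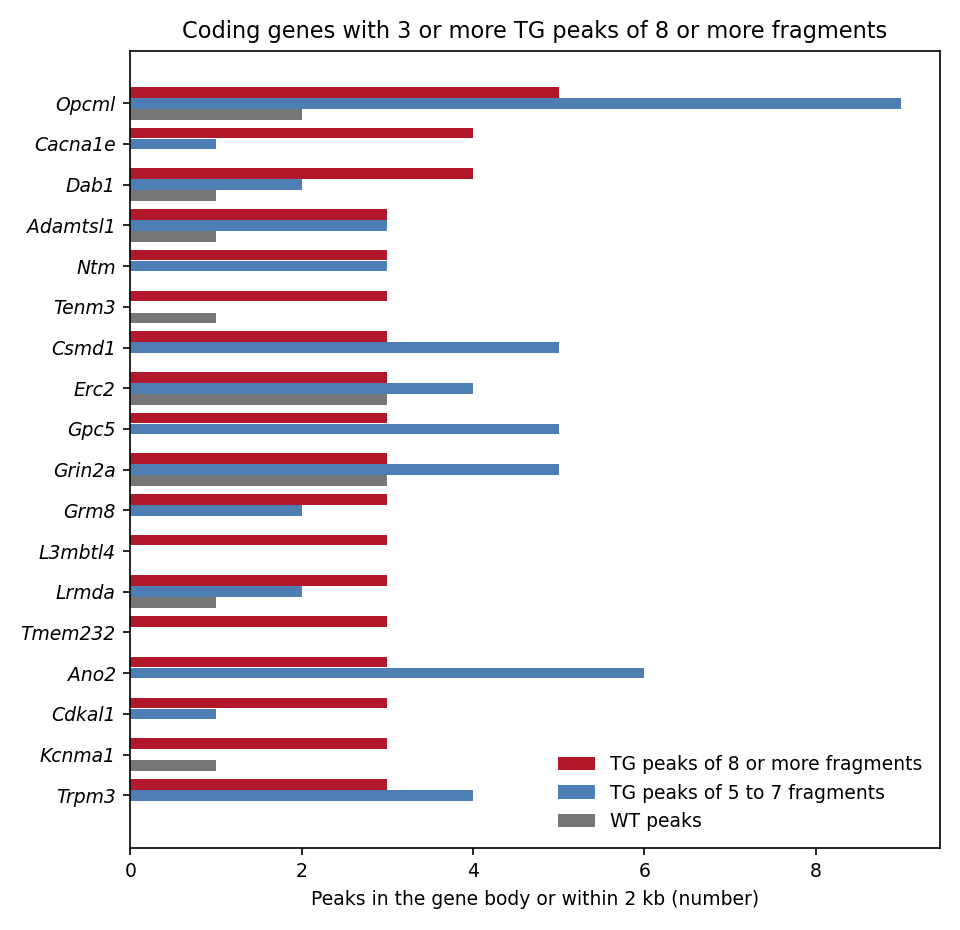
Number of peaks in the body or within 2 kb of the coding genes reported here that held 3 or more TG peaks of 8 or more fragments: TG peaks of 8 or more fragments (red), TG peaks of 5 to 7 fragments (blue) and WT peaks (grey). Opcml leads with 5 red peaks, and Tenm3, L3mbtl4, Tmem232 and Kcnma1 have no blue bar.

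By gene family, the lists with the highest share of genes holding a high-pileup peak were IgLON adhesion genes and metabotropic glutamate receptors, both of long genes. The lists were chosen with earlier results of these data known, so their shares and this ranking are description only. The IgLON share was the same in the low tier. Of 8 metabotropic glutamate receptor genes (median length 318 kb), 4 held one, among them Grm8 with 3, of 9, 9 and 8 fragments, Grm5 with 2 of 9 fragments and Grm7 with 1 of 8 fragments. Low-pileup peaks lay in 3 of the 8 and WT peaks in 1. Grm5 held its pair at folds of 5.43 and 5.03, with 0 WT peaks. Of 18 ionotropic glutamate receptor genes 3 held a high-pileup peak, Grin2a, Grik4 and Grid1. Of 25 voltage-gated calcium channel genes 4 did, Cacna1e, Cacna1c with 2, Cacna2d3 with 2 and Cacna1d with 1. The same number, 4, held a low-pileup peak, where over all coding genes the low tier reached 4.68% and the high tier 1.77%. Of 91 potassium channel genes 5 held a high-pileup peak, Kcnma1, Kcnq1, Kcnk9, Kcnk10 and Kcnv1, and 16 a low-pileup peak. GABA-A receptor genes gave 2 of 16, Gabrb2 and Gabrg3, against 3 with a low-pileup peak. TRP channels gave 1 of 27, Trpm3, against 6.

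Among adhesion genes, 7 of 33 cadherins and non-clustered protocadherins held a high-pileup peak, led by Cdh18 (9 fragments, fold 5.43) and Pcdh15 (9 fragments, fold 5.01), against 8 with a low-pileup peak. The IgLON genes gave 3 of 5 in both tiers. Contactins, neurexins and partners gave 4 of 22 (Nrxn3, Cntn1, Cntnap4 and Cntnap5a) against 11 with a low-pileup peak. Axon guidance genes gave 2 of 61, Plxna4 and Robo2, against 10. Leucine-rich repeat organisers gave 1 of 31, Lingo2 (10 fragments, fold 5.97), against 4. Teneurins and latrophilins gave 2 of 7 against 3, and glypicans and Spock genes 2 of 7 in both tiers. Adamts and Adamtsl genes gave 3 of 24 against 6, and receptor tyrosine phosphatases 3 of 21 (Ptprd, Ptprm and Ptprt) against 9. Over all coding genes the high tier reached 1.77% and the low tier 4.68%, at a median length of 17.6 kb. Median lengths of these lists ran from 18.9 kb (leucine-rich repeat organisers) to 968.5 kb (IgLON genes), with 123 kb for the cadherin list. These counts are therefore not a result about the families.

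Other lists held few or none. Of 388 Zfp zinc finger genes 0 held a high-pileup peak and 3 a low-pileup peak. Of 1103 olfactory receptor genes 3 held a high-pileup peak, Olfr513, Olfr54 and Olfr876, against 8 with a low-pileup peak. Of 351 vomeronasal receptor genes 0 did, against 5. Median lengths were 0.951 kb for the olfactory and 0.96 kb for the vomeronasal receptor genes. The Zfp genes had a median length of 17.98 kb, against 17.6 kb for all coding genes. The part of gene length in the counts of these 3 lists was not tested. High-pileup peaks were found in 0 of 14 radial glia genes, 0 of 6 intermediate progenitor genes, 0 of 10 cortical neuron genes, 0 of 10 interneuron genes and 0 of 17 genes of H3K9 methylation. Low-pileup peaks lay in 1 interneuron gene and in 0 radial glia, intermediate progenitor, cortical neuron or H3K9 methylation genes. With 1.77% of all coding genes holding a high-pileup peak, 0 in lists of 6 to 17 genes is not a result about them. Of 8 basal radial glia genes 1 held a high-pileup peak, and 1 a low-pileup peak. The gene with a high-pileup peak was Palld, an actin-bundling gene, with 10 fragments (fold 4.96) and also a WT peak. A count of 1 in a list of 8 is not a result about that list either. Of 7 microglia and blood genes 0 held a high-pileup peak and 2 a low-pileup peak, and of 5 endothelial and mural genes Cdh5 held 1 of 8 fragments.

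At 10 kb, spacing within the TG list did not differ beyond counting error between the tiers. Another TG peak lay within 10 kb of 10.3% of all autosomal TG peaks, of 123 high-pileup peaks (9.16%, 7.67 to 10.8) and of 504 low-pileup peaks (10.6%, 9.75 to 11.5). The difference was -1.45 points (-3.15 to 0.409). Within 1 kb the shares were 1.64% of high-pileup and 2.76% of low-pileup peaks, and that difference, -1.12 points, had an interval below 0 (-1.87 to -0.186). The median distance to the nearest other TG peak was 101 kb for high-pileup and 96.3 kb for low-pileup peaks. The nearest of those 123 neighbours was itself of the high tier for 32 high-pileup peaks (26.02%), against 94 of 504 low-pileup peaks (18.65%) and a share of 22.0% over all autosomal TG peaks. Each pair within the tier counts for both of its peaks, and this difference was not tested.

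These 32 formed 16 pairs, and no 3 high-pileup peaks lay in a chain of gaps up to 10 kb. The closest pair, 553 bp apart in Cdkal1, had 8 fragments each and folds of 4.53 and 4.66. A pair 882 bp apart, 223 kb from Snx19, had 8 fragments each over 2 input fragments and folds of 3.03. The pair of most fragments, 11 and 10, lay 1501 bp apart in the noncoding gene C230014O12Rik, 133 kb from Pbx3, a homeobox gene. A pair of 11 and 8 fragments lay 190 kb from Bcl11b, a transcription factor gene of deep-layer cortical neurons. Other pairs lay inside L3mbtl4, Trpm3, Ano2 and Glra1, among others. No pair had a low-pileup peak within 10 kb.

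At the scale of 1 Mb, 972 windows held a high-pileup peak, of 2000 with any autosomal TG peak. The window at chr16:25000001-26000000, over Tprg, Trp63 and P3h2, held 7 high-pileup peaks, 7 low-pileup peaks and 2 WT peaks. Its 14 TG peaks would include 3.09 of the high tier at the overall share. The next, at chr13:29000001-30000000 over Cdkal1 and E2f3, held 5 high-pileup, 3 low-pileup and 0 WT peaks, where that share gives 1.76 of 8. The window at chr9:32000001-33000000, over Arhgap32, Kcnj5, Kcnj1, Fli1 and Ets1, held 4 high-pileup peaks and neither a low-pileup nor a WT peak. There the same share gives 0.882 of 4. The window over Grin2a, at chr16:9000001-10000000, held 4 high-pileup, 8 low-pileup and 4 WT peaks, where the share gives 2.65 of 12. These windows were singled out among the 2000 for their counts and have no test.

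At 10 kb, the share with a WT neighbour did not differ beyond counting error between the tiers. A WT peak lay within 10 kb of 1.33% of all autosomal TG peaks, of 21 high-pileup peaks (1.56%, 0.970 to 2.38) and of 60 low-pileup peaks (1.26%, 0.965 to 1.62). The difference was 0.300 points (-0.347 to 1.16). Within 100 kb the shares were 9.23% of high-pileup and 8.80% of low-pileup peaks (difference 0.431 points, -1.23 to 2.27). Of the high-pileup peaks 0 of 1343 overlapped a WT peak, which allows a share of up to 0.223% at 3 counts of the total (exact upper bound 0.274%), and 4 low-pileup peaks did (0.0842%).

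With a threshold of 9 fragments the result at 10 kb moved. Then 12 of 428 peaks (2.80%, 1.46 to 4.85) had a WT peak within 10 kb, against 69 of 5664 of fewer fragments (1.22%), a difference of 1.59 points (0.350 to 3.63). By single values the share was 0.984% at 8 fragments, 2.70% at 9 and 3.03% at 10 or more. The 21 peaks with a WT neighbour had a median local background of 1.29, against 1.085 for the 1322 others. Their median fold was 4.14, against 4.49 for the others. The low-pileup peaks showed a median background of 0.987 with and without a WT neighbour. The part of the background in this proximity was not tested.

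The WT peaks of the 21 neighbouring pairs had a median fold of 3.69, against 3.90 over all 742 autosomal WT peaks, and the lowest q among them was 0.804. The closest was 328 bp away in Lelp1, a gene of the epidermal differentiation cluster, where the TG peak held 10 fragments and the WT peak 6. In Adamtsl1 a TG peak of 9 fragments and a WT peak of 5 lay 371 bp apart. In Pde10a, a striatal phosphodiesterase gene, a TG peak of 10 and a WT peak of 7 lay 745 bp apart. Fragments were extended to 111 bp for TG and 57 bp for WT, so TG and WT counts are not on one scale. Other coding genes with such pairs were Dmbt1, Rap1gap2, Grin2a, Sorcs2, Fbxl13, Lrmda, Cdh13, Itgam, Astn2 and Prkcb. Intergenic pairs lay nearest to Sptlc3, Fam170a, Gata4, Gfra2, Satb1, Coch, Lpp and Arrdc4. Of 102 WT peaks of 8 or more whole fragments, 5 (4.90%, 1.61 to 11.1) had a high-pileup TG peak within 10 kb, against 16 of 640 WT peaks of 5 to 7 (2.50%, 1.44 to 4.03).

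In gene flanks, the 43 high-pileup peaks lay mostly beside noncoding genes and pseudogenes, which also make up most of the RefSeq genes used. The low tier was not split in this way. Peaks of 9 fragments lay beside Gm35702 (fold 5.43), A930027H12Rik (fold 5.33) and Gm32236 (fold 5.03), and beside Gm41584, 126 kb from Vegfa, the vascular growth factor gene. Beside coding genes lay the Gm16527 peak printed above and one 0.795 kb from Olfr54 with 8 fragments and a fold of 4.89, among others.

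Chromosomes differed little in the share of their TG peaks that reached 8 fragments. It ran from 17.5% on chromosome 19 (25 of 143) to 28.2% on chromosome 4 (90 of 319, 23.3 to 33.5). Chromosome 4 was the 1 autosome of 19 whose interval left out the overall 22.0%. Chromosome 17 followed with 26.99% (61 of 226, 21.3 to 33.3) and chromosome 8 with 25.6% (89 of 348). Chromosome 1 held the most high-pileup peaks, 114 of 517 TG peaks (22.1%), among them the peaks of 22 and 14 fragments and the Ctla4 peak of 13.

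**Figure D5:**
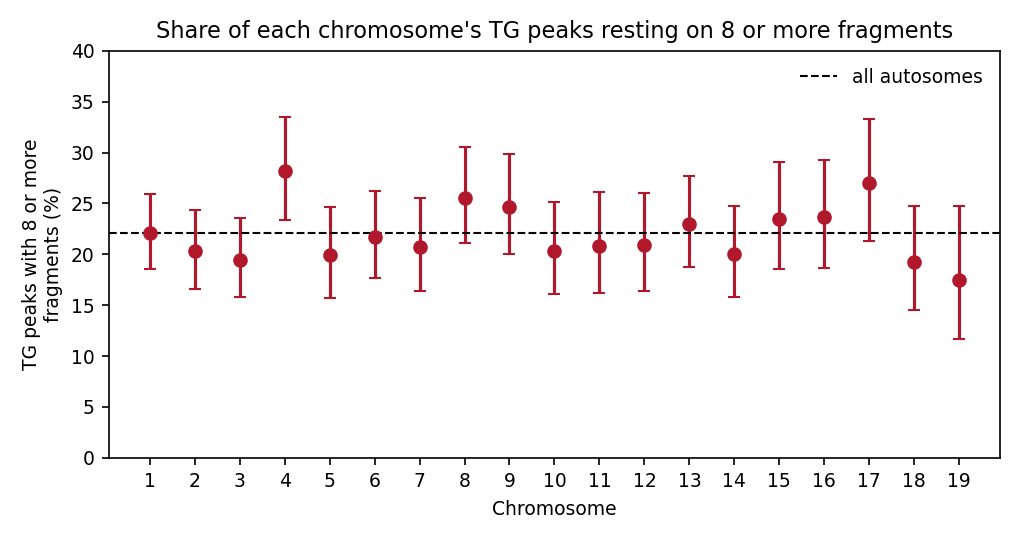
Share of the TG peaks of each autosome that rested on 8 or more fragments (percent, points) with exact 95% binomial intervals. The dashed line is the share over chromosomes 1 to 19, 22.0%. Chromosome 4, at 28.2%, is the point whose interval lies above the line.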

How the data were processed

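H3K9me2 ChIP libraries of TG and WT cortex, 1 each, were analysed from the authors' peak lists. Each library was called against its own input by the authors, per the file headers, with MACS 2.1.0.20150420 (p cutoff 0.001, no model, fragment extension 111 bp for TG and 57 bp for WT, larger library scaled to the smaller). BWA and the build mm10 are named in the submitters' processing notes. The deposited pileup signal counts extended fragments at the summit. The deposited fold is a ratio of pileup plus 1 to local background plus 1, which gave the background here. The caller also gave the deposited −log10 values of p and q, and q values are listed although the headers say that q is not calculated.

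Midpoints were placed on 49214 RefSeq genes of GRCm38.p6 (340 with a start under 3 Mb left out), of which 21523 are coding. The table gives no exons. Distances are edge to edge, with WT pileups divided by 0.951. Shares have exact (Clopper-Pearson) intervals and differences Newcombe intervals (scipy 1.17.1), and the functions were tested on simulated data. The members, the 26 gene lists and the rules were chosen with earlier results of these data known. Named genes came from the 20 peaks of highest pileup, pairs within 10 kb, WT neighbours, genes with 2 or more such peaks, flanks and up to 4 genes per list. Genes of windows, promoter windows, high backgrounds and highest folds, the shorter genes with 2 high-pileup peaks, and flanks beside noncoding genes were named after their values were seen. Alternatives were thresholds of 7 and 9 fragments, −log10 p of at least 5, merging within 1 kb, chromosome X, other flanks, extensions, distances and windows, summits, and ranges of background. A few genes that these rules name are not reported here.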

Additional observations from a re-analysis of the deposited data

How the results depend on the processing

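Peaks of 5 to 7 fragments made up 77.95% of the autosomal TG list and 86.25% of the WT list, and with 1 library per genotype none could be left out. No paired analysis was possible because each genotype has 1 library and no value comes from a test. Both ranges of background beside the genome-wide one were chosen after seeing the data. The cause of the changes was not tested, except where fewer peaks or another distance shifted a value. The coding difference was above 0, from 0.0721 to 6.46 points, in the 8 alternatives that changed its peak counts, and its interval left out 0 in 3. The noncoding difference was below 0, from -3.87 to -1.24, in the 9 that changed its counts, and its interval left out 0 in 5. With 9 fragments, 2.80% of peaks had a WT peak within 10 kb (difference 1.59 points) and 124 coding genes held one, in place of 364. With 7 fragments, other gene bodies held 10.02% (difference -1.24) and 670 coding genes held one. Requiring a −log10 p of 5 or more, which leaves 793 low-tier peaks, all of 7 fragments and low background, the coding difference was 6.46, the intergenic one -4.07, and 3.46% had another TG peak within 10 kb. Merging left 7.53% with such a neighbour. A 5 kb flank left 52.2% intergenic. Within 1 kb and 100 kb, 1.64% and 49.7% had another TG peak and 0.223% and 9.23% a WT peak. At the genome-wide background (104 peaks), coding bodies held 23.1%, other bodies 4.81% and intergenic sequence 69.2%, the TG spacing difference was 1.22, and 0 had a WT peak within 10 kb (difference -0.457). Under 1 fragment the shares were 24.6%, 6.45% and 66.5%, with coding and intergenic differences of 0.0721 and 5.10. From 1 fragment to the highest low-tier background, coding and intergenic shares were 35.2% and 51.9%.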

Other observations

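On chromosome X, which the autosomal comparison leaves out, 24 of 161 TG peaks (14.9%, interval 9.79 to 21.4) rested on 8 or more fragments, against 22.0% on the autosomes. Within 10 kb of a miRNA hairpin lay 2 of 1343 autosomal TG peaks of 8 or more fragments and 10 of 4749 of 5 to 7 fragments.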
